A study of Mus musculus with 2 samples.

Results

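H4K16ac peaks were examined at 10 antiviral genes that interferon induces: Ifit1, Ifit2, Ifit3, Isg15, Isg20, Rsad2 (viperin), Cmpk2, Usp18, Zbp1 and Bst2. The genes were listed by name, and all 10 of 10 were found among 21887 protein-coding mouse genes. For each gene, peaks were taken from its annotated start to its annotated end plus 20 kb on each side. Such peaks numbered 36 of 55149 in KAT8-cKO cells and 32 of 58229 in WT cells. H4K16ac is acetylation of histone H4 at lysine 16, mapped here by CUT&Tag, in which an antibody guides a transposase that cuts and tags nearby DNA. The cells were primary macrophages grown from mouse bone marrow with M-CSF at 20 ng/ml. Both groups, KAT8-cKO (KAT8-deficient) and WT, were stimulated for 2 h with R848 at 100 ng/ml, so no unstimulated cells were compared. Each group is 1 library, and the labels give neither the Cre line nor the age of the mice. Genotypes could not be tested against each other on 1 library each, and every difference below is one between 2 peak lists.

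KAT8, also called MOF, is the acetyltransferase that places most H4K16ac, a mark that loosens the packing of nucleosomes. R848 activates the endosomal receptor TLR7, which in macrophages leads to NF-κB signalling and to production of type I interferon. Interferon then activates transcription factors that bind the interferon-stimulated response element in promoters of antiviral genes.

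2 values of the peak caller describe each peak. The fold is its signal over the caller's background, and −log10 q rises as the false discovery estimate falls; a q-value of 0.05 is a −log10 q of 1.3. Both belong to their own list, so they rank peaks within it and do not measure a change between genotypes. The absence of a peak likewise means that none was called at that library's depth, which the files do not give. In the whole lists the median fold was 2.78 in KAT8-cKO and 2.90 in WT cells.

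Peaks at these genes were common and of middling strength in both genotypes. A peak lay within 1 kb of a gene end at 7 of 10 genes in KAT8-cKO cells, against 43.3% of all protein-coding genes, and at 7 of 10 in WT cells, against 46.8%. Ifit1, Ifit2, Isg20, Cmpk2 and Zbp1 had one in both lists, 5 of 10 genes against 35.8% of all genes. Rsad2 and Usp18 had one in the KAT8-cKO list and none in the WT list, 2 of 10 against 7.52%. Ifit3 and Bst2 had one in the WT list and none in the KAT8-cKO list, 2 of 10 against 11.1%. Isg15 had one in neither, as did 45.7% of all genes.

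The division changed little when only peaks with a q-value under 0.05 were counted. The same 5 genes had such a peak in both lists (25.3% of all genes) and the same 2 in the KAT8-cKO list alone (6.01%). Bst2 was left as the 1 gene in the WT list alone (11.6%), since the Ifit3 peak missed the threshold, and 2 of 10 genes had none (57.1%). Every gene had at least 1 peak of any strength within its neighbourhood of 20 kb in KAT8-cKO cells (80.2% of all genes) and in WT cells (80.5%). Ifit1, Ifit2 and Ifit3 lie in 1 cluster, and Rsad2 and Cmpk2 are neighbours, so the 10 genes are not independent loci.

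The strongest end peak of each gene, taken by −log10 q, lay in the lower and middle part of the range for genes that had one. In KAT8-cKO cells the 7 folds had a median of 3.19, beside 3.12 over 9473 genes with an end peak, and 4 of the 7 lay above that median. In WT cells the median was 3.23 beside 3.42 over 10249 genes, and 3 of the 7 lay above it. The percentiles among those genes ran from 24.2 at Isg20 to 60.1 at Rsad2 in KAT8-cKO cells, and from 9.12 at Ifit3 to 61.8 at Ifit1 in WT cells. These genes include only those with a peak, so the medians do not describe all 10.

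**Figure D1:**
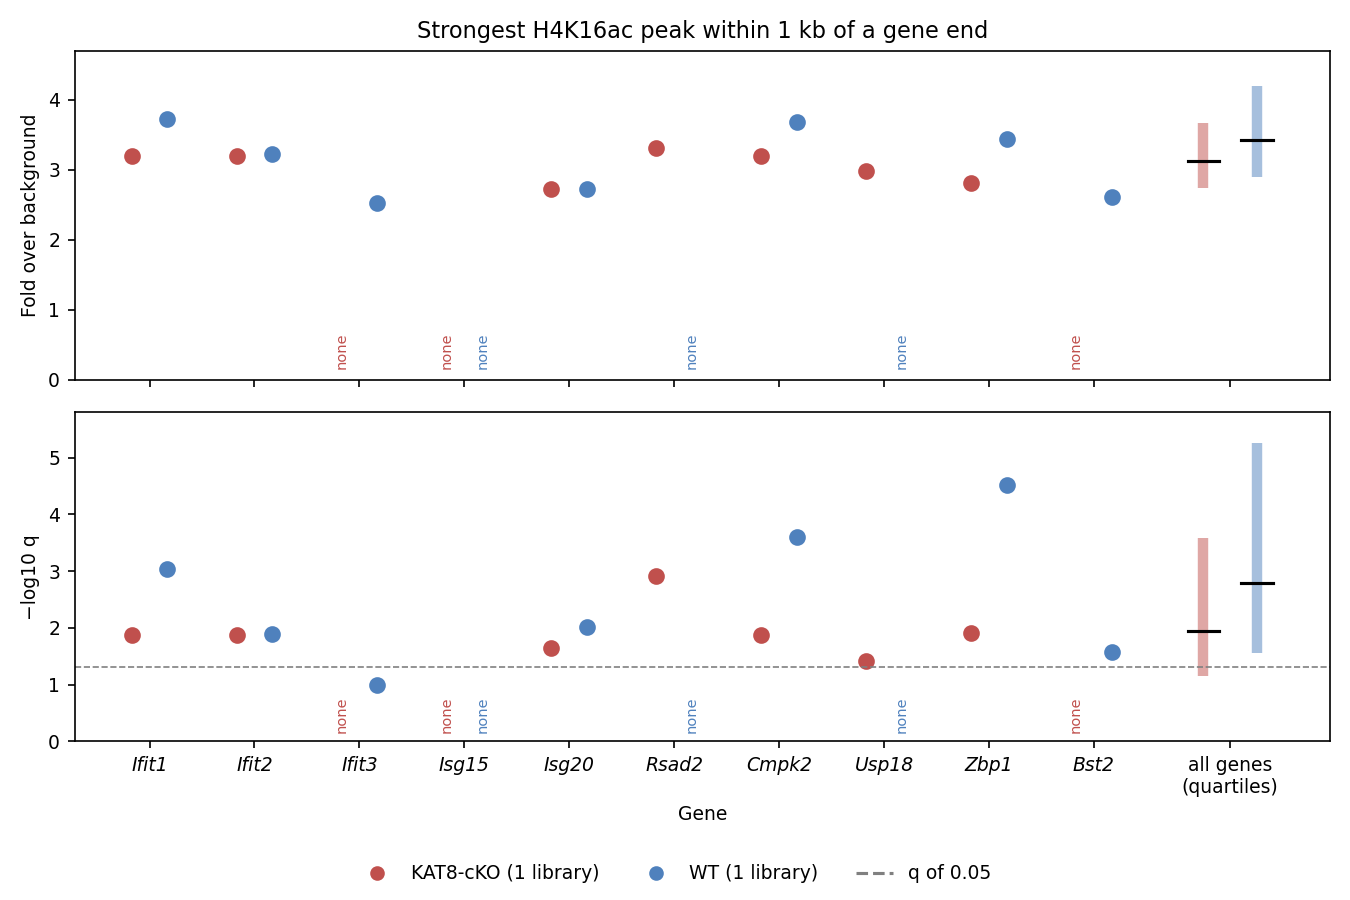
Fold (top, linear axis) and −log10 q (bottom) of the strongest H4K16ac peak within 1 kb of an end of each gene, KAT8-cKO in red and WT in blue, 1 library each; bars at the right span the quartiles of all genes with an end peak and black lines are their medians. Folds lie between 2.72 and 3.31 in KAT8-cKO cells and between 2.53 and 3.72 in WT cells, and "none" marks genes with no end peak.

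IFIT1 binds viral RNA that lacks the methylation of host caps and blocks its translation. Ifit2, Ifit3 and Ifit1 lie in that order on chromosome 19. At Ifit1 (chr19:34640889-34650009, mm10, plus strand) the start peak had 3.20-fold signal (−log10 q 1.87) in KAT8-cKO cells, against 3.72-fold (−log10 q 3.04) in WT cells. The WT peak, 690 bp wide, covered all 486 bp of the KAT8-cKO peak, and their summits lay 115 bp apart. The start of Ifit1bl2, a gene on the opposite strand, is 146 bp from that of Ifit1, so the peak belongs to both starts and cannot be assigned to one. No other KAT8-cKO peak lay in the Ifit1 neighbourhood, while WT cells had a second one 6743 bp past the gene (chr19:34656752-34656951), with 3.67-fold signal (−log10 q 2.73). That second peak lay inside the annotated span of Ifit1bl1.

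Ifit2 (chr19:34550550-34576534, plus strand) had the most even pair of start peaks by fold apart from Isg20. Its fold was 3.20 in KAT8-cKO and 3.23 in WT cells, with a −log10 q of 1.87 and 1.90. Ifit2 has 2 starts in the promoter table, and both peaks lay over the first of these (chr19:34550694), while the WT peak alone reached the second (chr19:34551088). Their summits were 41 bp apart, and the 236 bp of the KAT8-cKO peak lay inside the 508 bp of the WT peak. Inside the gene, a second pair overlapped by 99 bp, with folds of 2.99 in KAT8-cKO and 3.05 in WT cells. Another 2 body peaks in KAT8-cKO cells (both with a fold of 2.56) and 1 in WT cells (2.69) had no partner and a −log10 q of 0.663 and 0.774. Ifit2 was thus marked at its start and in its body in both lists.

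Ifit3 (chr19:34583119-34588982, plus strand) had peaks at its ends in WT cells only. The peak before its start (chr19:34582735-34583351) had 2.53-fold signal (−log10 q 0.994), and that at its far end 2.15-fold signal (−log10 q 0.440), so both missed a q-value of 0.05. The nearest KAT8-cKO peaks were 12262 bp and 9008 bp from them. Beyond Ifit3, the start region of its copy Ifit3b had 2 KAT8-cKO peaks, with folds of 2.31 and 2.34, against 1 WT peak with 3.25-fold signal (−log10 q 3.85). The promoters of Ifit3 and Ifit3b are alike, with 259 of 300 bases identical in an alignment, 86.3%, whereas other pairs in this family share 56.3% to 62.0%. How reads that match both copies were placed is not given in the sources used here.

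**Figure D2:**
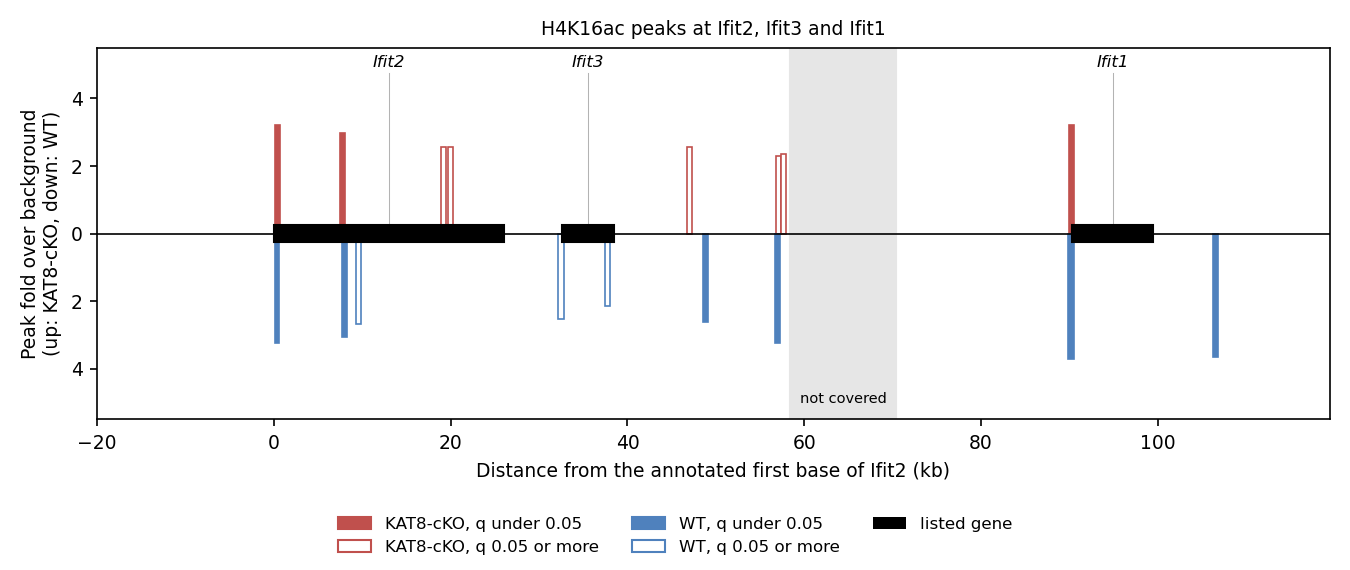
Peaks of both lists around Ifit2, Ifit3 and Ifit1, by distance from the annotated first base of Ifit2 (kb, x axis); bar height is the fold, upward for KAT8-cKO and downward for WT, with open bars for a q-value of 0.05 or more and narrow peaks widened to be visible. Both lists mark the starts of Ifit2 and Ifit1 with folds of 3.20 to 3.72, and the bars at Ifit3 itself are WT only; the grey stretch lies over 20 kb from any of the 3 genes.

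ISG15 is a small protein that is attached to other proteins much as ubiquitin is, and USP18 both removes it and damps signalling from the interferon receptor. Isg15 (chr4:156199424-156200818, minus strand), 1395 bp long, had no end or body peak in either list. Its nearest peak lay beyond its 3′ end, 1165 bp away in KAT8-cKO cells (chr4:156197703-156198259, fold 2.93, −log10 q 1.87) and 1277 bp away in WT cells (chr4:156197657-156198147, fold 4.39, −log10 q 7.89). That WT peak had the highest fold and −log10 q of all peaks of both lists in these neighbourhoods. It lies at another gene, with its summit 274 bp upstream of an annotated start of Agrn (310 bp in KAT8-cKO cells). Upstream of Isg15, KAT8-cKO cells had a peak (fold 3.37, −log10 q 2.48) with its summit 440 bp past the start of the noncoding gene AW011738, and WT cells had 2 weaker ones inside Perm1, with folds of 2.30 and 2.74.

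Usp18 (chr6:121245906-121270917) showed no overlap between the lists, among only 3 KAT8-cKO peaks and 1 WT peak. In the whole lists 35.6% of KAT8-cKO and 33.2% of WT peaks were overlapped, so a lack of overlap is common. In KAT8-cKO cells a peak spanned the low-coordinate end of Usp18 (chr6:121245888-121246148), with 2.99-fold signal (−log10 q 1.41), just past a q-value of 0.05. Another 2 KAT8-cKO peaks lay 1500 bp and 15249 bp past the other end, each with 3.20-fold signal (−log10 q 1.87). The nearer of these lay in another annotated gene, Gm44148. WT cells had 1 peak in the whole neighbourhood, in the gene body, with 2.199-fold signal (−log10 q 0.165). That peak lay 4916 bp from the KAT8-cKO end peak and near the bottom of its list, at percentile 1.00 by −log10 q.

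Viperin, the product of Rsad2, makes a nucleotide analogue that stops viral RNA polymerases, and CMPK2 is a mitochondrial nucleotide kinase. Their genes lie head to head on chromosome 12, and the lists differed in where they placed peaks there. At the start of Rsad2 (chr12:26442743-26456452, minus strand) KAT8-cKO cells had a peak from 11 bp before to 442 bp after it (chr12:26456010-26456463), with 3.31-fold signal (−log10 q 2.91). The nearest WT peak was 3383 bp away, between the genes (chr12:26459846-26460221), with 4.03-fold signal (−log10 q 4.96). A KAT8-cKO peak overlapped this one by 123 bp, with 2.42-fold signal (−log10 q 0.663). By −log10 q these overlapping peaks stood at percentile 22.0 of the KAT8-cKO list and 92.8 of the WT list.

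Cmpk2 (chr12:26469117-26479837, plus strand) had start peaks in both lists that overlapped by 131 bp. The KAT8-cKO peak, at 3.19-fold signal (−log10 q 1.87), began 2 bp before the annotated start, and the WT peak, at 3.68-fold (−log10 q 3.60), began 261 bp after it. Their summits lay 192 bp apart, the widest spacing of the 5 overlapping end pairs. Both outer flanks had overlapping peaks as well. Past Rsad2 the overlapping peaks had folds of 3.84 in KAT8-cKO and 2.69 in WT cells, and past Cmpk2 of 3.63 in KAT8-cKO and 2.69 in WT cells. The −log10 q there was 3.49 and 2.91 in KAT8-cKO cells, against 0.774 at both in WT cells. Nearer to Rsad2, WT cells had a peak with no KAT8-cKO partner (chr12:26439137-26439414), at 2.98-fold (−log10 q 1.40). The pair past Cmpk2 lay in another annotated gene, Gm46344.

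ISG20 is an exonuclease that degrades RNA. At Isg20 (chr7:78913396-78920396, plus strand) the end peaks lay upstream of the gene, 738 bp from it in KAT8-cKO cells and 795 bp in WT cells. Their folds were 2.72 in both, with a −log10 q of 1.65 in KAT8-cKO and 2.02 in WT cells and summits 29 bp apart. The 2 body peaks of KAT8-cKO cells had folds of 2.45 and 2.41 and missed a q-value of 0.05, and WT cells had no body peak. The other overlapping pair, with folds of 3.30 in KAT8-cKO and 3.28 in WT cells, lay at the starts of Aen. Past the gene, the 2 KAT8-cKO peaks (folds of 1.98 and 3.36) and the 1 WT peak (3.12) did not overlap; that of 1.98, at a −log10 q of 0.143, had the lowest fold in all these neighbourhoods.

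ZBP1 senses left-handed nucleic acid and can start cell death through RIPK3, and its gene had the most KAT8-cKO peaks, 8, against 6 in WT cells. At the high-coordinate end of Zbp1 (chr2:173206612-173218959) the strongest peaks were 698 bp apart and did not overlap. The KAT8-cKO peak (chr2:173217725-173217983) had 2.81-fold signal (−log10 q 1.91), and the WT peak (chr2:173218681-173218929) 3.44-fold (−log10 q 4.52). A second pair just outside the gene did overlap, with folds of 2.24 in KAT8-cKO and 2.48 in WT cells and a −log10 q of 0.663 and 1.296, both short of a q-value of 0.05. Zbp1 therefore counts as marked in both lists at a q-value under 0.05 through peaks at different places.

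BST2, or tetherin, holds budding virus particles at the cell surface. Bst2 (chr8:71534255-71537472, minus strand) had 1 end peak, in WT cells, from 746 to 180 bp upstream of its start (chr8:71537652-71538218), with 2.62-fold signal (−log10 q 1.58). The nearest KAT8-cKO peak was 4284 bp away, and no KAT8-cKO peak touched the gene or its ends. The peak that the lists share in this neighbourhood lay at the start of Mvb12a, with folds of 2.74 in KAT8-cKO and 3.20 in WT cells.

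**Figure D3:**
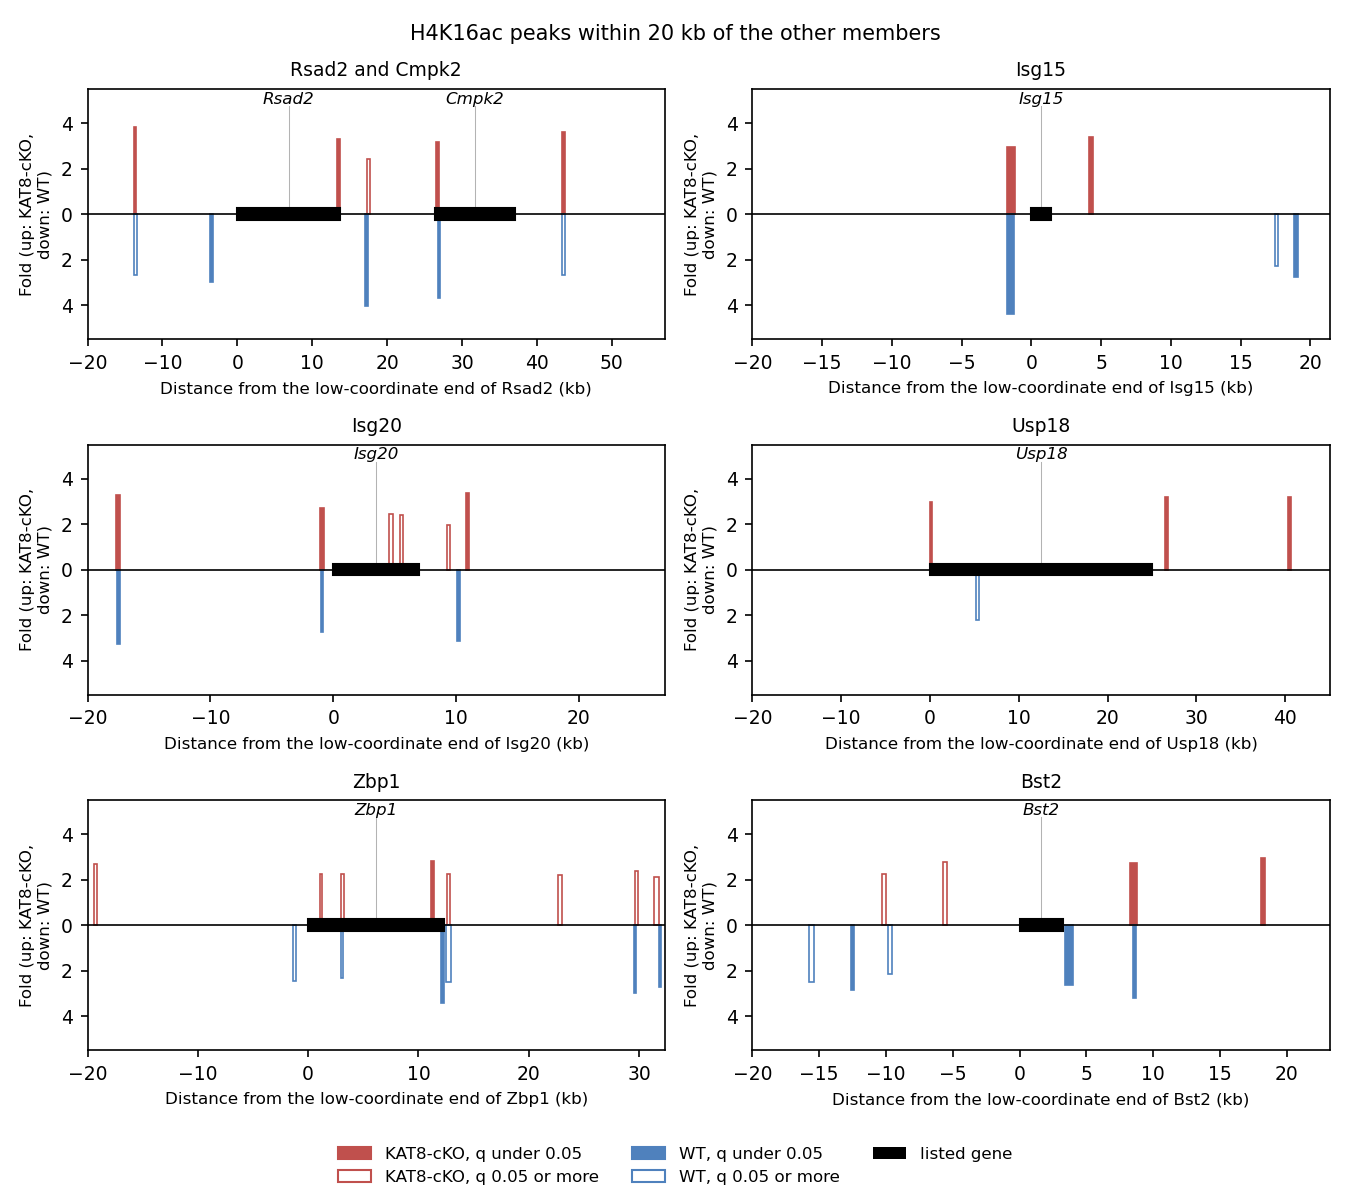
Peaks around the other 7 genes, by distance from the low-coordinate end of the first gene named (kb, x axis); bar height is the fold, upward for KAT8-cKO and downward for WT, with open bars for a q-value of 0.05 or more and narrow peaks widened to be visible. At Rsad2 and Usp18 the bar at a gene end is KAT8-cKO only, at Bst2 it is WT only, and the tallest bar, 4.39, is the WT peak beside Isg15.

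Promoter sequences were compared with the peaks because the response element is the feature these genes are known to share. RefSeq promoters (GRCm38.p6, from 250 bases before to 50 after a start) were found for 8 of 10 genes; Usp18 and Zbp1 were not matched. Shown are the first listed promoters of the 7 genes with a peak within 1 kb of a start, and a stretch of Isg15, which has none. Capitals mark matches to GAAANNGAAA on either strand, where N is any base, and a match on the other strand appears as its reverse complement:
Ifit1, chr19:34640639-34640938, plus strand: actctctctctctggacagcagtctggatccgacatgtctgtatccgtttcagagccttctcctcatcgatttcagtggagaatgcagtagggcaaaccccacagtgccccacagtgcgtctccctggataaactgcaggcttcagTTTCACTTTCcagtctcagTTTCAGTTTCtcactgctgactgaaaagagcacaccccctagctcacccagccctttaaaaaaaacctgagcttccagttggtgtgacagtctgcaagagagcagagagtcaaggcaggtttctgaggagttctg
Ifit3, chr19:34583279-34583578, plus strand: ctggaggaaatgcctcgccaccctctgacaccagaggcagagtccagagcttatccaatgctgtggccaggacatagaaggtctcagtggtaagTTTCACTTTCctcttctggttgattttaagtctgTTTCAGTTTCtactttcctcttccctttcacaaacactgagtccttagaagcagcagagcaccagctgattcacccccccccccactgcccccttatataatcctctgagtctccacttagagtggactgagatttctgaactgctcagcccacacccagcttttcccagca
Rsad2, chr12:26456403-26456702, minus strand: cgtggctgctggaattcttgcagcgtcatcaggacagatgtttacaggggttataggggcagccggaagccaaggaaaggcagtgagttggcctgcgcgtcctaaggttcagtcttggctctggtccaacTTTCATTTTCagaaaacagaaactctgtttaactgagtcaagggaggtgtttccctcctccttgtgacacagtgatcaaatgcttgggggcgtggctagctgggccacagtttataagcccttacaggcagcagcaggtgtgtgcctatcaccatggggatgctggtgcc
Bst2, chr8:71537423-71537722, minus strand: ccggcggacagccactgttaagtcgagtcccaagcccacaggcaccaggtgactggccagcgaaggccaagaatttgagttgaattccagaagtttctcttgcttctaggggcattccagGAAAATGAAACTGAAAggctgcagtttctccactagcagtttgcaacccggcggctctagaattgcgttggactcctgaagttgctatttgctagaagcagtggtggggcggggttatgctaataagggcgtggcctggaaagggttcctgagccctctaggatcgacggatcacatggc
Ifit2, chr19:34550444-34550743, plus strand: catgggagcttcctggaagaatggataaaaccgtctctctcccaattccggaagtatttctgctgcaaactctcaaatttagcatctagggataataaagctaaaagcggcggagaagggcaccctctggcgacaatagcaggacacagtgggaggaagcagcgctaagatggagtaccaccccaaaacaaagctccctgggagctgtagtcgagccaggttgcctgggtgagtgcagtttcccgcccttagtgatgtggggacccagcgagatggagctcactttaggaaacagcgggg
Cmpk2, chr12:26468965-26469264, plus strand: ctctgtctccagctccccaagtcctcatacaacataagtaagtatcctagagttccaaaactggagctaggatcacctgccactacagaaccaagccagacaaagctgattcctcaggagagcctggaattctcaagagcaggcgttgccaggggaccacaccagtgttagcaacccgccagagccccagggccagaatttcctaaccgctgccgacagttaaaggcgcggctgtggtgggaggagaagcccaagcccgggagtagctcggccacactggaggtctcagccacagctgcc
Isg20, chr7:78913174-78913473, plus strand: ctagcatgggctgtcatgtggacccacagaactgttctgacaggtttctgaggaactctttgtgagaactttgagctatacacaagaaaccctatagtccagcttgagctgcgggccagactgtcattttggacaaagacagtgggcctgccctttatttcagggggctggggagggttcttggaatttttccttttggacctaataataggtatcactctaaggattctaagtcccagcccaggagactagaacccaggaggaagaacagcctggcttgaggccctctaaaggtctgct
Isg15 from -103 to -32, chr4:156200850-156200921, minus strand: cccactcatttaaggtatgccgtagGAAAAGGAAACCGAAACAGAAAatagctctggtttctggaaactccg

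GAAANNGAAA was present at 5 of the 8 genes, against 3.94% of 17492 protein-coding genes with a promoter and 3.35% of their 21263 promoters. Of all 32851 promoters in the table, 3.44% hold it. There were 10 matches, between -156 and -57 relative to the start; the 3 at Isg15 overlap each other, as do the 2 at Bst2. No other motif was searched. The 2 matches of Ifit1 lay inside its peaks in both lists. The other 8 lay in no peak of either list, although Ifit3 and Bst2 had WT peaks ending 178 bp and 180 bp before the start, and Rsad2 a KAT8-cKO peak that began 11 bp before it. The start peaks of Ifit2 and Cmpk2 lay on or past starts whose printed promoters have no match. Over all genes with a promoter, 689 had a match, and 37.9% of these had a start peak in KAT8-cKO and 44.6% in WT cells. Of the 16803 without a match the shares were 42.9% and 46.8%. The share of all matches that lie inside a peak is not given. The positions above therefore do not show whether these genes differ from others with a match. A match is a description of letters and not a measured binding site.

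The share of genes with a start peak went with the number of CpG dinucleotides in the promoter (the highest count where a gene has several). Over all genes with a promoter, those with at most 6 CpGs had a peak within 1 kb of a start in 10.4% of cases in KAT8-cKO and 11.9% in WT cells. With 7 to 22 CpGs the shares were 49.8% and 55.0%, and with 23 or more 69.1% and 74.7%. Of the 8 genes here, 4 (Ifit1, Ifit3, Isg15 and Rsad2) were in the lowest group, 4 in the middle and 0 in the highest. In the lowest group 2 of 4 had a start peak in KAT8-cKO cells (Ifit1 and Rsad2) and 2 of 4 in WT cells (Ifit1 and Ifit3). In the middle group it was 3 of 4 in KAT8-cKO and 4 of 4 in WT cells.

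**Figure D4:**
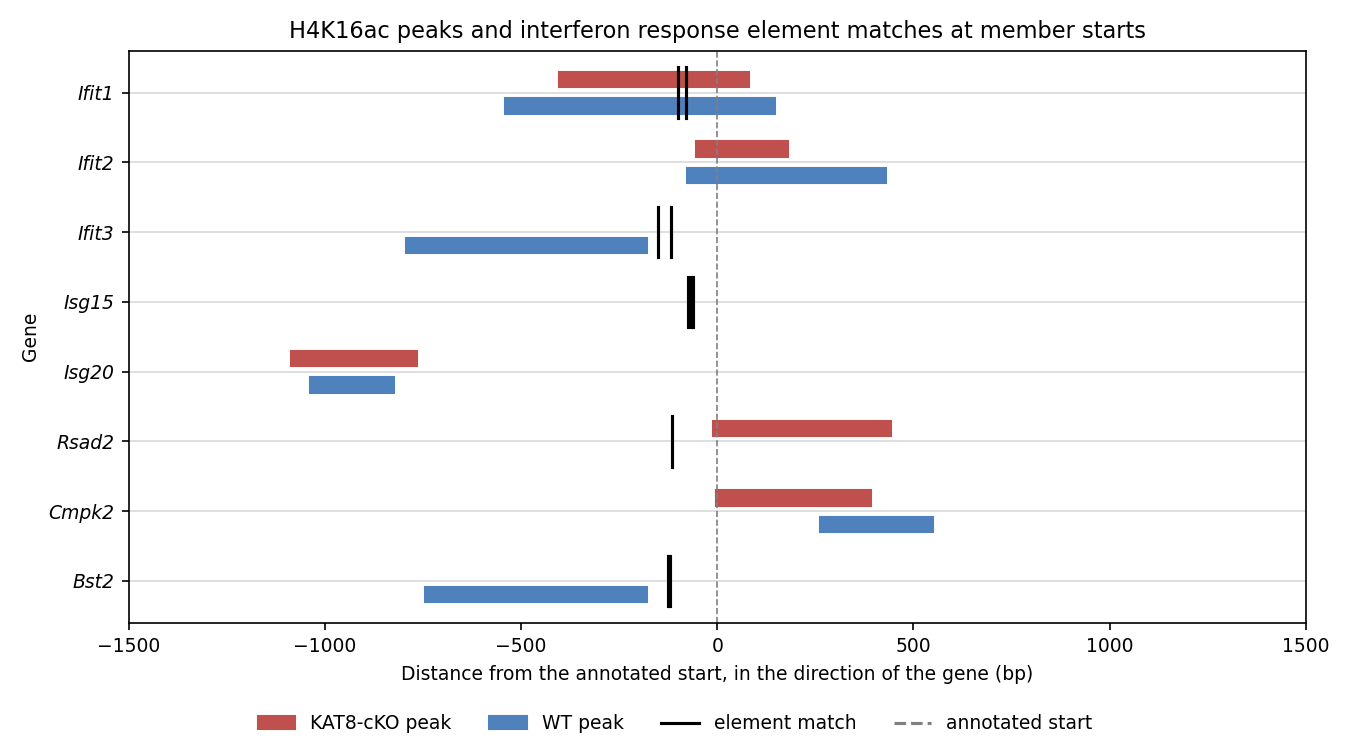
Peaks of KAT8-cKO (red, upper bar) and WT (blue, lower bar) around the annotated start of 8 genes (the first listed where there are several), by distance in the direction of the gene (bp, x axis); vertical black lines are matches to GAAANNGAAA. The matches lie between -156 and -57, inside peaks at Ifit1 and outside them at Ifit3, Isg15, Rsad2 and Bst2.

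Over the whole neighbourhoods, which merge into 8 stretches of 453.6 kb, peaks were dense and partly shared. There were 7.94 peaks per 100 kb in KAT8-cKO and 7.05 in WT cells. The median gene here had 7.67 per 100 kb in KAT8-cKO and 7.35 in WT cells, against medians of 3.83 and 4.31 over all protein-coding genes treated the same way. In KAT8-cKO cells 9 of 10 genes lay above that median, Ifit1 being the exception at 2.04, and in WT cells 8 of 10 did, with Usp18 lowest at 1.54. The neighbourhoods overlap and hold other genes, so the density belongs to the loci and not to these genes alone.

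Of the 36 KAT8-cKO peaks, 15 overlapped a WT peak, 41.7% (95% Wilson interval 27.1 to 57.8), beside 35.6% of the whole list. Of the 32 WT peaks, 15 overlapped a KAT8-cKO peak, 46.9% (30.9 to 63.6), beside 33.2%. Both intervals cover counting error only and contain the shares of the whole lists. Among peaks with a q-value under 0.05, overlapped by a peak of any q-value, the shares were 10 of 18 in KAT8-cKO and 11 of 20 in WT cells. Of all such peaks the shares were 51.3% and 50.1%. With a q-value under 0.05 asked of both peaks, 8 of 18 in KAT8-cKO and 8 of 20 in WT cells overlapped, and whole-list shares for that rule are not given. The strength of the peaks was ordinary as well, with a median fold of 2.73 in each list and a highest fold of 3.84 in KAT8-cKO and 4.39 in WT cells. A −log10 q of at least 5 was reached by 0 of 36 KAT8-cKO peaks, against 4.86% of that list, and by 1 of 32 WT peaks, against 7.12%.

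By position, the 10 genes had 8 end, 7 body and 26 flanking peaks in KAT8-cKO cells, and 9, 4 and 23 in WT cells, with a peak counted again for each gene whose neighbourhood holds it. Overlap with the other list was seen at 5 end, 2 body and 10 flanking peaks in each list. Shares over all genes are not given for body or flanking peaks or for overlap by position. These counts therefore do not show whether the 10 genes differ from others. Body peaks occurred at 3 genes in each list: Ifit2, Isg20 and Zbp1 in KAT8-cKO cells, and Ifit2, Usp18 and Zbp1 in WT cells.

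Further genes of the interferon response were read in the same way. Of 46 listed genes, 44 were found (not Mx1 and Mx2), and 28 of them, 63.6%, had an end peak in both lists. Adar, which encodes an RNA-editing enzyme, was the 1 gene with an end peak in KAT8-cKO cells only (2.27%), 12 genes had one in WT cells only (27.3%), and 3 had none in either list. Over all genes these shares were 35.8% in both, 7.52% in KAT8-cKO cells only and 11.1% in WT cells only. At a q-value under 0.05, 18 had one in both lists, 0 in KAT8-cKO cells only, 15 in WT cells only and 11 in neither. Of all genes, 25.3% had such a peak in both lists, 6.01% in KAT8-cKO cells only, 11.6% in WT cells only and 57.1% in neither. Some of the 44 genes are neighbours, so they are not independent loci either. Dtx3l and Parp9 overlap each other and had the same WT end-peak fold, 2.91, and −log10 q, 1.68. Ifit3b lies in the Ifit cluster described above. Among the highest KAT8-cKO folds were those of the antibody receptor gene Trim21 (4.27), Sp100 (3.73), the ISG15 ligase gene Herc6 (3.63) and Ifi27 (3.52). Their WT folds were 3.91, 2.46, 5.13 and 4.22. The other high WT folds were at Samd9l (4.80) and Oasl2 (4.02), with no KAT8-cKO end peak, and at Shisa5 (4.20), with a KAT8-cKO fold of 2.64.

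Genes that act with the 10 were counted too, in lists that also hold Isg15, Usp18 and Zbp1 themselves. Over all genes, 35.8% had an end peak in both lists, and 25.3% had 1 with a q-value under 0.05 in both. Of 6 genes of ISG15 conjugation, Herc6, Trim25 and the activating enzyme gene Uba7 had end peaks in both lists. At a q-value under 0.05 this held for Herc6 alone, since Trim25 passed in neither list (−log10 q 0.912 in KAT8-cKO and 1.18 in WT cells) and Uba7 in KAT8-cKO cells only (3.85, against 0.683 in WT cells). The conjugating enzyme gene Ube2l6 had one in WT cells only (fold 3.12), Usp18 in KAT8-cKO cells only and Isg15 in neither. Of 6 genes around ZBP1, Zbp1 itself included, 5 had an end peak in both lists. The highest folds were those of Ripk1, 5.12 in KAT8-cKO and 5.92 in WT cells. Ripk3 had a weak end peak in WT cells only (2.34). At a q-value under 0.05, 4 of these 6 (Ripk1, Fadd, Casp8 and Zbp1) had one in both lists, Zbp1 through peaks at different places. At that threshold 1 (Mlkl) had one in WT cells only and 1 (Ripk3) in neither. The interferon receptor gene Ifnar2 had an end peak in both lists, with folds of 2.92 in KAT8-cKO and 3.95 in WT cells. So did the receptor's kinase gene Jak1, with folds of 4.06 in KAT8-cKO and 3.90 in WT cells.

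**Figure D5:**
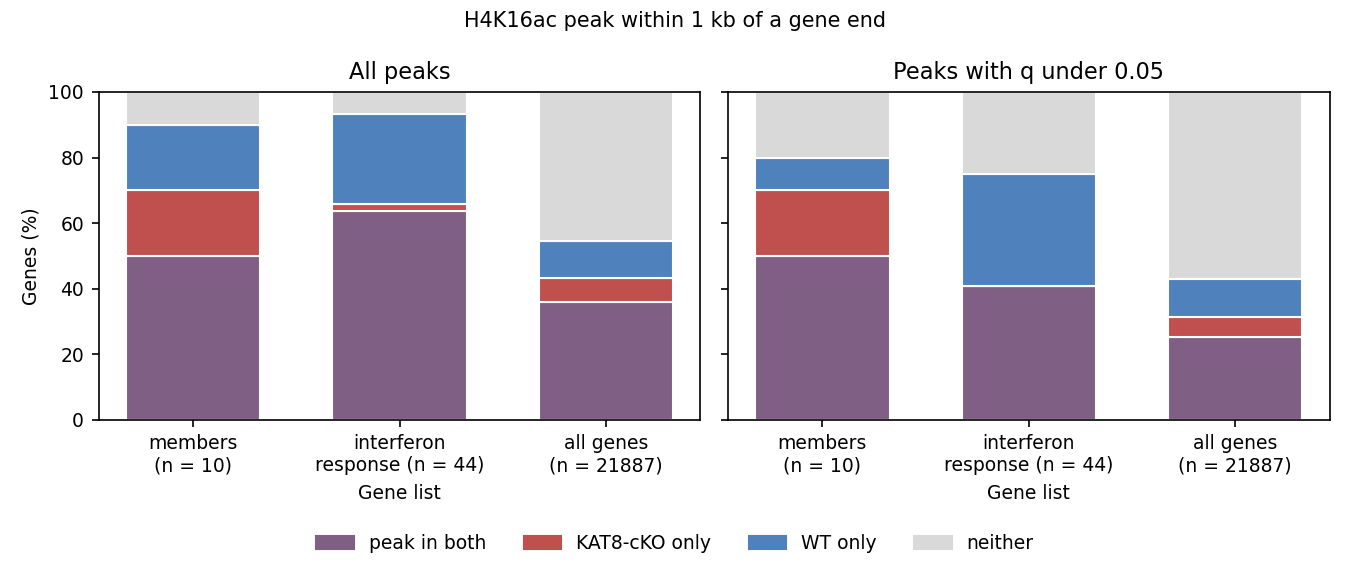
Share of genes (%, y axis) with an H4K16ac peak within 1 kb of an end in both lists, in KAT8-cKO only, in WT only or in neither, for the 10 genes, 44 other interferon response genes and all 21887 protein-coding genes; all peaks are on the left and those with a q-value under 0.05 on the right. Peaks in KAT8-cKO only make up 2 of 10 genes here and 1 of 44 in the other list, and over all genes 7.52%.

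Within the interferon response list, the genes most like the 10 in the strength of their end peaks were Gbp2, Parp14, Ifi35, Trex1 and Ifih1. Likeness was the distance to the median percentile of these 10 genes in the 2 libraries, 70.3 in KAT8-cKO and 63.8 in WT cells. Percentiles here rank −log10 q among all peaks of a peak list, not among genes, with a gene without an end peak set to 0. Set against genes with an end peak, the 7 genes here had a median −log10 q of 1.87 beside 1.95 in KAT8-cKO cells. In WT cells it was 2.02 beside 2.79. Genes outside the interferon response list were not ranked, so the likeness is not particular to these 5. Gbp2, which encodes a guanylate-binding protein, was nearest, at percentiles of 73.3 and 62.9 and a distance of 3.13 points. Ifih1, which encodes the RNA sensor MDA5, was at 20.2 points.

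The labelled cell type was set against marker genes by the same end peaks. Over all genes 43.3% had one in KAT8-cKO and 46.8% in WT cells. Of 12 macrophage markers, 6 had one in KAT8-cKO and 10 in WT cells, and Lyz2 had one in neither. Of 7 T cell markers, 1 had one in KAT8-cKO and 3 in WT cells, and of 6 B cell markers 1 and 2. Neutrophil markers gave 2 and 3 of 7, dendritic cell markers 2 and 2 of 6, and fibroblast markers 1 and 3 of 6. At a q-value under 0.05, 1 macrophage marker had one in both lists (25.3% of all genes) and 2 in KAT8-cKO cells only (6.01%). In WT cells only it was 3 (11.6%), and 6 of the 12 had none (57.1%). Markers with no such peak in either list were 6 of 7 for T cells, 4 of 6 for B cells and 5 of 7 for neutrophils. For dendritic cells they were 5 of 6, and for fibroblasts 6 of 6. With peaks of any strength, the macrophage surface gene Adgre1 had one in WT cells only, at a −log10 q of 0.726. The integrin gene Itgam had one in KAT8-cKO cells only, at 1.54. H4K16ac is no measure of expression, and the part of cell composition in the peaks above was not tested.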

How the data were processed

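One H4K16ac CUT&Tag library from KAT8-cKO and one from WT macrophages was analysed, each with 1 deposited peak list. The submitters' processing notes name mm10 along with Bowtie 0.12.8, DiffBind and MACS2 2.2.7.1, without their roles. Peak settings, a control library and sequencing depth were not given in the sources used here. For every peak the deposited values are a fold over background (column 7), −log10 values for the p-value (column 8) and the q-value (column 9), a score that is 10 times column 8 to within 1, and the summit offset, all from the authors' peak caller. Peaks were assigned to RefSeq genes of GRCm38.p6, on which mm10 is based, with 1-based coordinates. An end peak has at least 1 base within 1 kb of either annotated end, a body peak lies elsewhere in the gene, and a flanking peak within 20 kb. Overlap meant at least 1 bp. Starts and promoters came from the RefSeq promoter table.

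The genes and lists were chosen with earlier results of these data known, so their counts are descriptions, to be read against the shares over all 21887 protein-coding genes. Named from other lists were up to 5 genes with the highest end-peak folds in each peak list, and the 5 nearest by likeness. Some of the neighbours with a peak at an end or in the gene were named too. Single genes of small counts (Adar, Ube2l6, Ripk3, Lyz2, Adgre1, Itgam) were named after their values were seen. Results of 1 further gene are not reported here. No test between genotypes was possible with 1 library per group. The code was checked on simulated data and by direct search, with 0 of 2000 peaks and 0 of 500 genes differing. Python 3.11.15, numpy 2.4.6 and pandas 2.3.3 were used. Alternatives varied the peak threshold, the windows and the overlap rule.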

Additional observations from a re-analysis of the deposited data

How the results depend on the processing

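Alternatives varied the peak threshold, the window at gene ends, the width of the flanks and the overlap rule. The 5 genes with an end peak in both lists were the same with a q-value under 0.05 (25.3% of all genes) and among the 20000 strongest peaks per list (22.3%). They were also the same with the summit in the window (34.1%). There were 4 with windows of 500 bp (31.3%) and 6 with windows of 3 kb (46.7%). Around annotated starts only there were 4 of the 8 genes with a listed start, which Zbp1 lacks. The share over all 17492 genes with a listed start was 36.4%. Of the 2 genes in KAT8-cKO cells only, Rsad2 was left as 1 with the strongest 20000 peaks (5.71% of all genes). It was also the 1 left with starts only (6.29% of genes with a listed start), as Usp18 has no listed start. Of the 2 in WT cells only, 1 was left with a q-value under 0.05 (11.6% of all genes) and 0 with the strongest 20000 peaks (10.7%). With −log10 q at 5 or above, all 3 counts were 0, as few genes pass it (4.59% in both lists, 1.40% in KAT8-cKO only and 7.85% in WT only). Peaks in the neighbourhoods numbered 18 in KAT8-cKO and 20 in WT cells with a q-value under 0.05, 16 and 14 with the strongest 20000, 0 and 1 at 5 or more on the −log10 q scale, 21 and 18 with flanks of 5 kb, and 58 and 60 with flanks of 50 kb. The higher count was thus that of KAT8-cKO cells under some settings and that of WT cells under others. The overlapped shares moved to 25% in KAT8-cKO and 28.1% in WT cells when 50% of each peak had to be covered. Whole-list shares under that stricter rule are not given, and those given above, 35.6% and 33.2%, are for an overlap of 1 bp. The share was 0% of the 1 WT peak with −log10 q at 5 or above, and at this threshold KAT8-cKO cells had no peak to give a share. No paired analysis was possible because each genotype has 1 library. Without replicates or read totals, depth and genotype cannot be told apart.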

Other observations

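Fold values recurred in both lists. The 8 commonest folds were evenly spaced, by 0.214 in the KAT8-cKO and 0.244 in the WT list, and were held by 40.2% and 34.3% of peaks. Whole multiples of that spacing, within 0.001, made up 43.4% of KAT8-cKO and 36.9% of WT folds, and 10 of 36 and 5 of 32 in the neighbourhoods of these genes. The start peaks of Ifit1 and Ifit2 and 2 flanking peaks of Usp18 in KAT8-cKO cells thus had the same fold, 3.20, and the same −log10 q, 1.87. The end-peak folds of Ifit2 (3.20 in KAT8-cKO and 3.23 in WT cells) and of Isg20 (2.72 in both) lay closer together than either spacing. Of these folds, only that of Ifit2 in KAT8-cKO cells is a whole multiple of its list's spacing, so the spacing sets no limit for the others. The spacing differs between the lists, so it is no unit for a change between genotypes.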
